A study of Homo sapiens with 6 samples.

Results

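The genes described here are the long intergenic noncoding RNA genes with a LINC symbol that were transcribed in 12Z cells, an immortalised human line derived from endometriotic tissue, after a frankincense extract or after its solvent. The 181 members were selected on their measured level, a mean of 1 TPM (transcripts scaled for length and to the same library total) or more in the frankincense or in the vehicle libraries. They are 181 of 60616 gene identifiers in the files and 181 of 2282 identifiers with a LINC symbol, of which 827 were above 0 TPM in at least 1 library. Because the measured values chose the members, membership, the levels that gave it and a change that carried a gene across 1 TPM are descriptions and not findings. Of the 181 members, 131 reached 1 TPM in both groups, 28 after frankincense only and 22 after vehicle only.

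Frankincense, the resin of Boswellia trees, was given as an extract at 70 ug/mL in dimethyl sulphoxide (DMSO) for 12 h before 3 of the libraries, and DMSO alone was given before the other 3. All 6 libraries came from 12Z cells kept in medium with 10% charcoal-stripped serum. The labels do not say whether the replicates were grown separately, so the p-values measure only how far these samples spread, which may be technical variation. In bulk RNA, fewer cells that hold a transcript and less of it per cell cannot be told apart.

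LINC symbols are given to long RNAs that lie between protein-coding genes and have no established protein product. Such RNAs are usually transcribed by RNA polymerase II, many are spliced and polyadenylated, and many are held in the nucleus and removed there by the RNA exosome. Most are made at low levels, and few have a known molecular role. Those that do act as scaffolds or decoys for proteins, as hosts of small RNAs, through the act of transcription beside a neighbouring gene or, in some cases, through a short encoded peptide.

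Some LINC transcripts are precursors of small RNAs, and the sequences that bear on this are shown first. A script found 11 small RNA genes that overlap 5 members, 7 of them microRNA genes and 4 of them small nucleolar RNA genes, and 5 of the microRNA genes lie on the strand of the member. The second LINC-PINT identifier, ENSG00000226380 at chr7:130876809-130913310 (minus strand, GRCh38), contains the MIR29B1 hairpin (chr7:130877459-130877539) in an exon, and the MIR29A hairpin (chr7:130876747-130876810) overlaps its last bases. LINC00472 at chr6:71344344-71420769 (minus strand) holds the hairpins of MIR30A (chr6:71403551-71403621) and MIR30C2 (chr6:71376960-71377031) in its introns. The mature microRNAs below are from RefSeq (GRCh38.p14), and capitals mark the seed, bases 2 to 8, which pairs with targets. They are shown because both miR-29 sequences share 1 seed and both miR-30 sequences share another.
hsa-miR-29a-3p: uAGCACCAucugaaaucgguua
hsa-miR-29b-3p: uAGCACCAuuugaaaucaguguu
hsa-miR-30a-5p: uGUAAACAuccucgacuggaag
hsa-miR-30c-5p: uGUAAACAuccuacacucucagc
The miR-29 family is known for repressing mRNAs of collagens and other matrix proteins. The 4 genes inside or beside LINC00888 are of the SNORA63 kind or carry no symbol, and SNORA63 RNAs guide pseudouridylation of ribosomal RNA. The libraries measured long RNA, so none of these small RNAs was measured.

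Start regions were available from RefSeq (GRCh38.p14) for 131 of the 181 members by symbol, 250 bases before to 50 bases after each start. Their median GC content was 59.3%, against 58.3% over all 27305 windows, and the median number of CpG pairs was 13, against 14. The windows below belong to LINC00662 and LINC03052, the largest rises with a window among members with 1 TPM or more in both groups, to LINC02593, the largest fall among them, and to LINC00205, which was picked after its values were seen because a coding gene starts beside it. Capitals mark the 50 transcribed bases after the RefSeq start.
LINC00662, chr19:27793891-27794190, minus strand: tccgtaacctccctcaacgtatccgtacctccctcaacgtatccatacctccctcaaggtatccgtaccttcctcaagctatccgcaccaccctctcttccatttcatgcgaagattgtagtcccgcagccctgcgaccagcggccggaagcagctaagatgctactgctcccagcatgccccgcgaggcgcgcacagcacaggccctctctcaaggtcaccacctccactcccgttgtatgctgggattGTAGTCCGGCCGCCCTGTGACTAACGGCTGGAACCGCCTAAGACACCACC
LINC03052, chr2:95526705-95527004, minus strand: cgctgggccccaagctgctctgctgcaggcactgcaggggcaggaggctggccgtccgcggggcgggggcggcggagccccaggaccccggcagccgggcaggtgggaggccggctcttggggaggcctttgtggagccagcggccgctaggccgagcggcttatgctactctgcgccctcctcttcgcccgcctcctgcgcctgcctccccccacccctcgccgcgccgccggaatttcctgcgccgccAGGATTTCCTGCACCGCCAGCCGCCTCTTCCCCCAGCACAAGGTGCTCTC
LINC02593, chr1:919643-919942, minus strand: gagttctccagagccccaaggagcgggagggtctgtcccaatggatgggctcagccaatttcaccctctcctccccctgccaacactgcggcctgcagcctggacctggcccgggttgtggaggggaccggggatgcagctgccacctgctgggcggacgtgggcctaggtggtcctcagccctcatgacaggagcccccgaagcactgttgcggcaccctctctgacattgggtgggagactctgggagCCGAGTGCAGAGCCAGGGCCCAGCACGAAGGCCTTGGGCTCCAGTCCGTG
LINC00205, chr21:45287802-45288101, plus strand: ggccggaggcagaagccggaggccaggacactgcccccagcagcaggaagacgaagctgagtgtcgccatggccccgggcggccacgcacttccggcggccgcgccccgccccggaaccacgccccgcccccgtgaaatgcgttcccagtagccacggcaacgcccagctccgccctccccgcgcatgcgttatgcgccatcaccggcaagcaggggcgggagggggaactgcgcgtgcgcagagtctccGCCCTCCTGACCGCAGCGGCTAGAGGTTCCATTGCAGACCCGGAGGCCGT
The annotated start of LINC02593 in GENCODE 29 lies 1324 bases away from the RefSeq start, while those of LINC00662, LINC00205 and LINC03052 lie 0, 2 and 52 bases away. The LINC00205 window has 34 CpG pairs and also holds the RefSeq start of POFUT2, a protein O-fucosyltransferase, which is read in the other direction from a point 157 bases upstream.

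Each window was searched on both strands for 7 short motifs, and none was found in the 4 windows shown. TGACNNNGC, the core of the antioxidant response element, was present in 18.5% of the 130 distinct member windows and in 13.6% of all windows. TGANTCA, the AP-1 site, was present in 10.0% of member windows and 7.76% of all windows, and CACGTG, the E-box, in 9.23% and 7.43%. TATAAA was present in 7.69% of member windows and 12.0% of all windows, TGATGNAA, the C/EBP-ATF response element, in 2.31% and 3.67%, and TGACGTCA, the cAMP response element, which holds no other of these motifs, in 3.85% and 1.98%. The heat shock element was found in 0 member windows and in 0.487% of all windows. An AP-1 site followed by GC also matches the antioxidant core when its variable letter is C, so 1 run of letters can count for both. These shares describe the letters in the windows and say nothing about which factors were bound.

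The libraries held 22615150 to 27615196 expected counts, the reads RSEM assigned to genes, so 3 counts, the floor used here, correspond to 0.109 to 0.133 CPM (counts scaled to the library total). Mitochondrial genes took 9.50 to 11.0% of counts in frankincense libraries, against 14.0 to 14.7% in vehicle libraries, which moves every TPM value. On TPM the median log2 ratio over all tested genes was 0.25. Changes below are taken from counts scaled by TMM, where that median was -0.0016. TMM centres most genes near 0 by construction, so this median does not show which scale is right. Frankincense replicate 3 stood apart: its chi-square per degree of freedom was 12.9 and 11.2 against replicates 1 and 2, which differed from each other by 3.93, while vehicle pairs differed by 3.65 to 4.18. Of the cell type markers, KRT8 averaged 684 TPM after frankincense and 771 TPM after vehicle, and VIM 1969 and 2048 TPM. Other markers moved in both directions: COL1A1 averaged 699 TPM after frankincense and 1444 TPM after vehicle, THY1 48.4 and 98.2 TPM, PDGFRB 13.3 and 25.2 TPM, CD14 0.413 and 2.53 TPM, KRT7 13.2 and 5.84 TPM, CDH2 84.3 and 57.3 TPM, and CD68 46.2 and 29.2 TPM. The 6 stromal markers summed to 2731 to 2916 TPM after frankincense and 3648 to 3715 TPM after vehicle, and the 6 epithelial markers to 1361 to 1419 TPM and 1574 to 1605 TPM; their part in the members' changes was not tested. CDH5, CD3E and MS4A1 were listed at 0, PTPRC reached at most 0.22 TPM, none of the 5 endothelial markers reached 1 TPM and 2 of 5 immune markers did. CDH1, the epithelial cadherin, reached at most 0.23 TPM, so a defining epithelial marker was near 0 beside high keratins.

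The members were low in number of reads and unequal in level. Their median was 2.39 TPM over all libraries, 24 of them averaged 10 TPM or more, and the 10 with the highest level made up 28.3% of the members' summed TPM in vehicle libraries. LINC00963, at chr9:129483451-129513686 (plus strand) and first described in prostate cancer cells, had the highest level, with 48.6, 44.0 and 47.2 TPM after frankincense, against 23.3, 23.2 and 21.8 TPM after vehicle. LINC01278 averaged 36.5 TPM after frankincense and 25.1 TPM after vehicle, LINC01002 32.6 and 24.1 TPM, LINC00342 28.4 and 30.01 TPM, and LINC01089 14.4 and 30.9 TPM. LINC01002 has a near-identical copy in LINC01001 and LINC00342 one in APPAT, so their reads are divided by estimate. On counts the log2 fold change of LINC01002 was 0.22 and was not called (adjusted p = 0.0876 by edgeR). At the edge of the selection, LINC01588 and LINC02321 were just inside with a frankincense mean of 1.003 TPM each and vehicle means of 0.930 and 0.610 TPM, while LINC02925, with 0.637 TPM after frankincense and 0.987 TPM after vehicle, and LINC00869, with 0.950 and 0.713 TPM, were just outside. On counts LINC01588 went the other way, with a log2 fold change of -0.90.

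**Figure D1:**
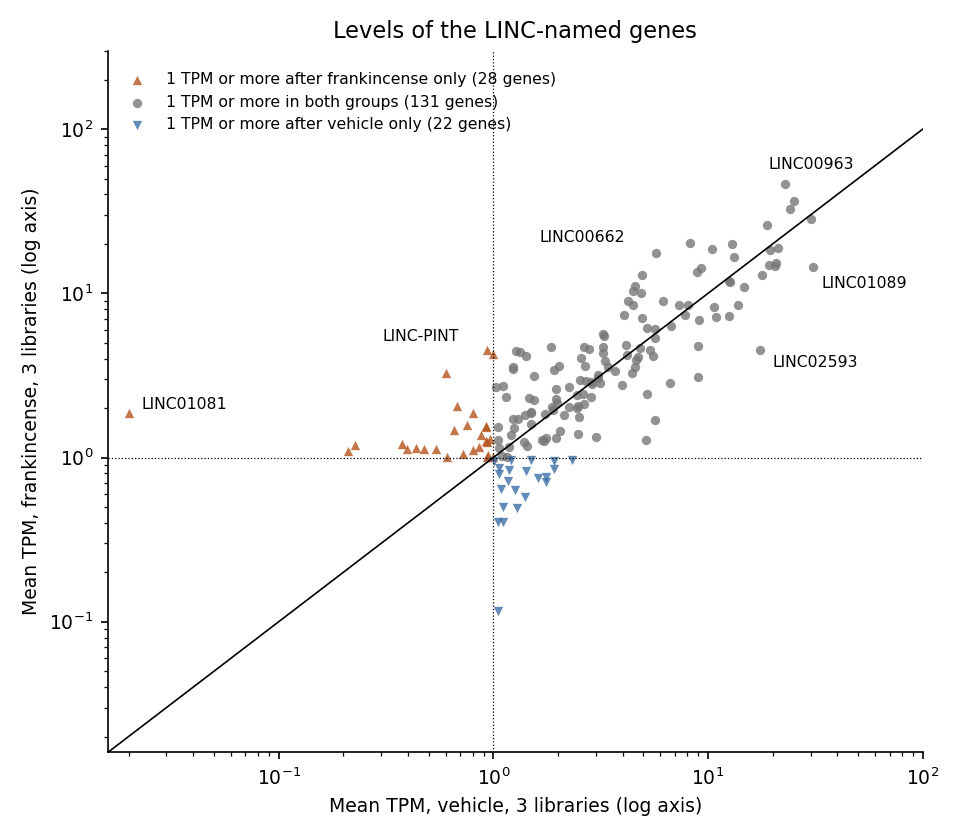
Mean TPM of each of the 181 members after frankincense (vertical, log axis) and after vehicle (horizontal, log axis), each over 3 libraries. Triangles up are the 28 members at 1 TPM or more after frankincense only, circles the 131 in both groups and triangles down the 22 after vehicle only; the solid line marks equal levels and the dotted lines 1 TPM.

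Summed over the members, TPM was 899, 883 and 949 in frankincense libraries, against 840, 817 and 817 in vehicle libraries. The frankincense libraries were all above the vehicle libraries, by 85.4 TPM on average. With TPM rescaled without mitochondrial genes, the sums averaged 1095 ± 41.1 after frankincense and 1129 ± 20.4 after vehicle (SD, n = 3 each), the groups overlapped and the difference was -33.2 TPM. The members' share of all expected counts averaged 0.108% ± 0.0021 after frankincense and 0.113% ± 0.0023 after vehicle (SD, n = 3 each). The direction of the summed level therefore depends on the scale.

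Single members changed in both directions. Of the 181, 169 had enough counts to be tested with edgeR (quasi-likelihood test), and their p-values were adjusted by Benjamini-Hochberg over all 16719 genes tested. At an adjusted p under 0.05, 104 were called, 39 higher and 65 lower after frankincense. Over all genes tested, 62.9% were called, 31.9% higher and 31.0% lower. Among the 127 tested members with 1 TPM or more in both groups, 74 were called, 28 higher and 46 lower, of which 9 and 11 changed by 2-fold or more, and the median log2 fold change was -0.26. Over all 169 tested members that median was -0.24. Of the 127, 58.3% were called, 22.0% higher and 36.2% lower. The share over all 169, 61.5%, includes members that entered by 1 group, for which the selection favours a call. Both shares were near the 62.9% of all genes. On TPM with a pseudocount of 1, the same 169 members split into 54 higher and 38 lower, the other way round. The share of all genes called on TPM is not given here, but the whole scale lay higher. The median log2 TPM ratio was 0.083 over the tested members and 0.25 over all tested genes. On counts and on TPM alike, the members' median lay below that of all genes, a difference that was not tested.

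Other long noncoding RNAs were counted in the same fit. Among the 2164 other lncRNA genes of GENCODE 29 that were tested, 986 were called, 370 higher and 616 lower, with a median log2 fold change of -0.15. Of 40 tested lncRNAs with names of another kind, 12 rose and 16 fell, with a median of -0.11. GAS5, a snoRNA host, averaged 1256 ± 55.6 TPM after frankincense and 369 ± 11.6 TPM after vehicle (SD, n = 3 each), and NEAT1, the scaffold of paraspeckles, 3678 ± 393 and 1785 ± 35.3 TPM. MIR210HG, the host of a hypoxia-induced microRNA, averaged 4.61 ± 1.52 TPM after frankincense and 37.1 ± 3.10 TPM after vehicle. The most abundant members therefore stood far below the most abundant lncRNAs of other names.

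**Figure D2:**
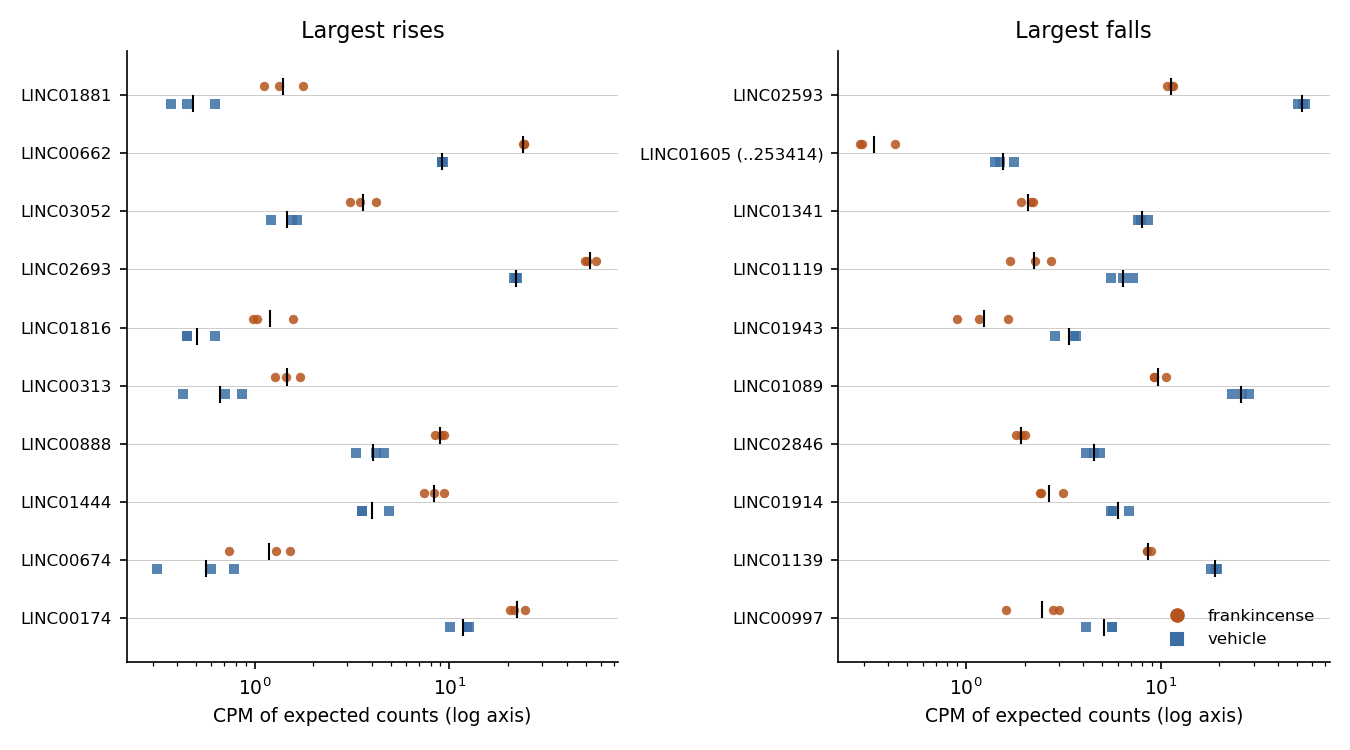
CPM of expected counts (log axis) in every library for the 10 largest rises (left) and the 10 largest falls (right) among members with 1 TPM or more in both groups. Circles are frankincense libraries, squares vehicle libraries and vertical bars group means; the groups overlap for LINC00674 and for no other gene shown.

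Among members with 1 TPM or more in both groups, the largest rises were near that of GAS5, 1.38 on the log2 scale. LINC00662 had 24.1, 23.9 and 24.0 CPM in frankincense libraries, against 9.31, 9.15 and 9.18 CPM in vehicle libraries. Its groups lay far apart with little spread inside each, and its log2 fold change was 1.38 ± 0.07 (SE), adjusted p = 8.96e-10 by edgeR. LINC00662 lies at chr19:27684580-27793940 (minus strand), 1411381 bases from the nearest coding gene, UQCRFS1, and shares exon bases with LINC02987, whose log2 fold change of -0.26 was not called. LINC01881, typed as a transcribed pseudogene in GENCODE 29, had 1.33, 1.12 and 1.76 CPM after frankincense, against 0.452, 0.373 and 0.625 CPM after vehicle. That is 27 to 43 expected counts against 10 to 16, with no overlap and a log2 fold change of 1.53 ± 0.30, adjusted p = 0.000474 by edgeR. LINC02693, listed as the coding gene C17orf51 in GENCODE 29, had 49.6, 50.9 and 56.5 CPM after frankincense, against 22.1, 21.4 and 22.2 CPM after vehicle. Its groups did not overlap, and it rose by 1.26 ± 0.07 on the log2 scale, adjusted p = 8.60e-10 by edgeR.

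The other rises were smaller or rested on fewer reads. LINC03052 had 3.49, 4.21 and 3.08 CPM after frankincense, against 1.22, 1.64 and 1.56 CPM after vehicle, a log2 fold change of 1.27. LINC00888, the snoRNA-bearing member, had 9.01, 8.45 and 9.35 CPM after frankincense, against 4.20, 4.59 and 3.32 CPM after vehicle, a log2 fold change of 1.15. LINC00313 also had a log2 fold change of 1.15, and SIK1, the salt-inducible kinase gene 34905 bases away, one of 1.44; LINC00313 has a near-identical copy, so its reads are divided by estimate. LINC01444 rose by 1.05, LINC01816 by 1.22 and LINC00174 by 0.92 on the log2 scale, each with no overlap between groups and an adjusted p of at most 0.00313 by edgeR. LINC00674 had 1.53, 1.29 and 0.738 CPM after frankincense, against 0.316, 0.597 and 0.781 CPM after vehicle. Its groups overlapped, and its call (log2 fold change 1.05, adjusted p = 0.0189 by edgeR) was lost without frankincense replicate 1 or 2 or vehicle replicate 1 or 2, where the adjusted p was 0.0535 to 0.1002.

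Among members with 1 TPM or more in both groups, the largest falls went further than the largest rises. LINC02593, at chr1:916865-921016 (minus strand), had 11.5, 10.7 and 11.5 CPM in frankincense libraries, against 53.7, 54.6 and 50.4 CPM in vehicle libraries. Every frankincense library was more than 4-fold below every vehicle library, and the log2 fold change was -2.24 ± 0.07, adjusted p = 3.62e-12 by edgeR. One of the pair of LINC01605 identifiers, ENSG00000253414, had 0.431, 0.292 and 0.287 CPM after frankincense, against 1.76, 1.49 and 1.41 CPM after vehicle. This is 7 to 11 expected counts against 36 to 40, and the log2 fold change was -2.18 ± 0.29, adjusted p = 1.41e-05 by edgeR. The other LINC01605 identifier, ENSG00000253161, averaged 3.55 TPM after frankincense and 3.41 TPM after vehicle, with groups that overlapped. LINC01341, at chr1:246776013-246792385 (plus strand), had 2.15, 1.92 and 2.21 CPM after frankincense, against 7.95, 8.59 and 7.61 CPM after vehicle. Its groups did not overlap and its log2 fold change was -1.94 ± 0.13, adjusted p = 1.16e-08 by edgeR; it shares exon bases with the kinesin pseudogene KIF28P.

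Further falls included members with a described role. LINC01089, also known as LIMT and described as an inhibitor of metastasis that epidermal growth factor lowers, had 9.28, 9.20 and 10.7 CPM after frankincense, against 26.2, 28.4 and 23.3 CPM after vehicle. It fell by 1.42 on the log2 scale, and it shares exon bases with other genes, so its reads may not be separable from theirs. LINC01139, also known as LINK-A and described in breast cancer cells as a stabiliser of HIF1A protein, had 8.50, 8.91 and 8.45 CPM after frankincense, against 18.2, 19.4 and 19.1 CPM after vehicle, and fell by 1.13. LINC01119 had 2.27, 2.75 and 1.68 CPM after frankincense, against 7.23, 5.56 and 6.404 CPM after vehicle, and fell by 1.51. SOCS5, a suppressor of cytokine signalling upstream of it on the same strand, fell by 1.01. LINC01943, LINC02846, LINC01914 and LINC00997 fell by 1.44, 1.25, 1.18 and 1.06 on the log2 scale, with no overlap between groups. LINC01943 shares exon bases with CYTOR, an abundant lncRNA with a log2 fold change of -0.32, and has a near-identical copy elsewhere.

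A list of LINC genes with published roles named 24 of the identifiers in the files, and 17 of these were members. Of the 16 that were tested, 7 were higher and 7 lower, 87.5% in all, against 62.9% of all genes tested. Leaving out the members that entered by 1 group, 6 of 14 were higher and 6 lower. The list was chosen with earlier results of these data known, so its share cannot show an excess of calls, and the 2 shares were not compared by a test. Of the 12 among these 14 that edgeR called, DESeq2, another count-based test, did not call LINC00467, LINC00680, LINC01116, LINC00472 or the LINC-PINT identifier ENSG00000231721. LINC00963 rose by 0.44 ± 0.05 on the log2 scale (adjusted p = 2.28e-06 by edgeR). LINC00665, from which a short peptide has been described, rose by 0.48 ± 0.12, adjusted p = 0.0028, and LINC00467, which encodes a mitochondrial peptide bound to ATP synthase, by 0.31 ± 0.10, adjusted p = 0.0185, which was 0.110 without frankincense replicate 2 and 0.0794 without vehicle replicate 2. LINC00339, at the endometriosis risk locus that also holds CDC42 and WNT4, had 10.1, 8.16 and 9.64 CPM after frankincense, against 7.996, 6.95 and 6.76 CPM after vehicle. Its groups did not overlap, with a log2 fold change of 0.37 ± 0.11 and an adjusted p of 0.00965 by edgeR that was 0.0552 without frankincense replicate 1 and 0.0512 without vehicle replicate 3. It overlaps CDC42-AS1 and other genes, whose reads cannot be told apart from its own without strand. LINC00680, with a log2 fold change of 0.35 and an adjusted p of 0.0385, lost its call without any single library other than frankincense replicate 3, at 0.0503 to 0.134.

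The other members of that list were lower, not called or not tested. LINC00511, a very long locus with 106 annotated transcripts, had 1.84, 1.96 and 1.93 CPM after frankincense, against 3.75, 2.95 and 3.01 CPM after vehicle. Its groups did not overlap, and it fell by 0.76 ± 0.18 on the log2 scale, adjusted p = 0.00171 by edgeR. LINC00342 fell by 0.33, and LINC01116 fell by 0.28, with an adjusted p of 0.0129 that was 0.0612 without vehicle replicate 1. LINC00472, the host of MIR30A and MIR30C2, had 15.4, 15.6 and 14.8 CPM after frankincense, against 19.6, 18.3 and 16.5 CPM after vehicle. Its fall of 0.24 on the log2 scale (adjusted p = 0.0169 by edgeR) was not called without vehicle replicate 1 or 2, at 0.0957 and 0.0523. LINC00265 and LINC00641 had log2 fold changes of -0.11 and 0.03 that were not called, at adjusted p of 0.327 and 0.862. LINC00520, also known as LEENE and described as an enhancer of endothelial nitric oxide synthase expression, had too few counts to test, 8, 14 and 13 after frankincense against 3, 0 and 1 after vehicle.

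LINC-PINT, a p53-induced RNA that binds Polycomb repressive complex 2, appears under 2 identifiers whose counts differed between groups in opposite directions. ENSG00000226380, the one that holds MIR29B1, had 4.25, 4.55 and 4.79 TPM after frankincense, against 0.88, 1 and 0.91 TPM after vehicle. It entered by its frankincense level, so its difference is a description: 182 to 204 expected counts after frankincense and 66 to 84 after vehicle, with no overlap. ENSG00000231721 had 14.2, 10.5 and 10.6 TPM after frankincense, against 13.0, 12.1 and 12.9 TPM after vehicle, levels that overlapped. On counts it fell by 0.28 ± 0.09 on the log2 scale, adjusted p = 0.0177 by edgeR, and the call was lost without frankincense replicate 3 or vehicle replicate 1 or 2, at 0.0513 to 0.0808. It overlaps MKLN1 on the other strand, which rose by 0.36.

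The members that reached 1 TPM in 1 group only are given by their values. After frankincense only, LINC00471 had 4.70, 4.31 and 3.78 TPM, against 0.86, 1.12 and 1 TPM after vehicle. LINC01473 had 2.87, 3.47 and 3.44 TPM after frankincense, against 0.520, 0.970 and 0.310 TPM after vehicle, and LINC02449 2.13, 1.56 and 2.47 TPM, against 0.250, 1.11 and 0.680 TPM. In each of these genes every frankincense library was above every vehicle library. LINC01081, picked out after its values were seen, had 21, 34 and 18 expected counts after frankincense, against 0, 1 and 0 after vehicle, or 1.87 against 0.02 TPM on average. LINC01081 is known for regulating FOXF1, the next coding gene, in the lung; FOXF1 had a log2 fold change of -0.49, adjusted p = 9.39e-05 by edgeR.

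Among those that reached 1 TPM after vehicle only, LINC00173 had 1.15, 0.350 and 1.40 TPM after frankincense, against 2.93, 2.14 and 1.90 TPM after vehicle. LINC03060 had 0.770, 0.880 and 1.19 TPM after frankincense, against 1.98, 1.46 and 2.32 TPM after vehicle, LINC01963 0.550, 1.04 and 0.950 TPM, against 1.94, 1.87 and 1.95 TPM, and LINC01730 0.400, 0.770 and 0.950 TPM, against 2.09, 1.23 and 1.97 TPM. The groups did not overlap for any of these 4. LINC00460, of the published list, averaged 0.403 TPM after frankincense and 1.05 TPM after vehicle. LINC00887, also picked out after its values were seen, had 1, 2 and 4 expected counts after frankincense, against 23, 21 and 16 after vehicle.

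Transcript length was not named in the selection, but it is not independent of it, because TPM is divided by length and a shorter mean can carry a gene over 1 TPM. The length values are therefore given as a description. RSEM gives each gene and library a mean transcript length weighted by the estimated abundance of its transcripts, so a shift means that the estimated mix of transcripts moved. Of 138 tested members with at least 2 transcripts, 32 (23.2%) had no overlap between groups, against 20.2% of all tested genes of that kind. Among them 22 were shorter and 10 longer after frankincense. All such genes leaned the same way, with 1710 shorter and 1119 longer. With a change of 10% or more as well, 16 members (11.6%) remained, 14 shorter and 2 longer, against 7.04% of all such genes, 672 shorter and 316 longer. A lean towards shorter transcripts is therefore not particular to the members. Among the 109 of them with 1 TPM or more in both groups, 27 had no overlap, 17 shorter and 10 longer, and 12 also changed by 10% or more, 10 shorter and 2 longer. Without frankincense replicate 3, which stood apart, 49 members had no overlap, and with fewer libraries less overlap arises by construction.

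**Figure D3:**
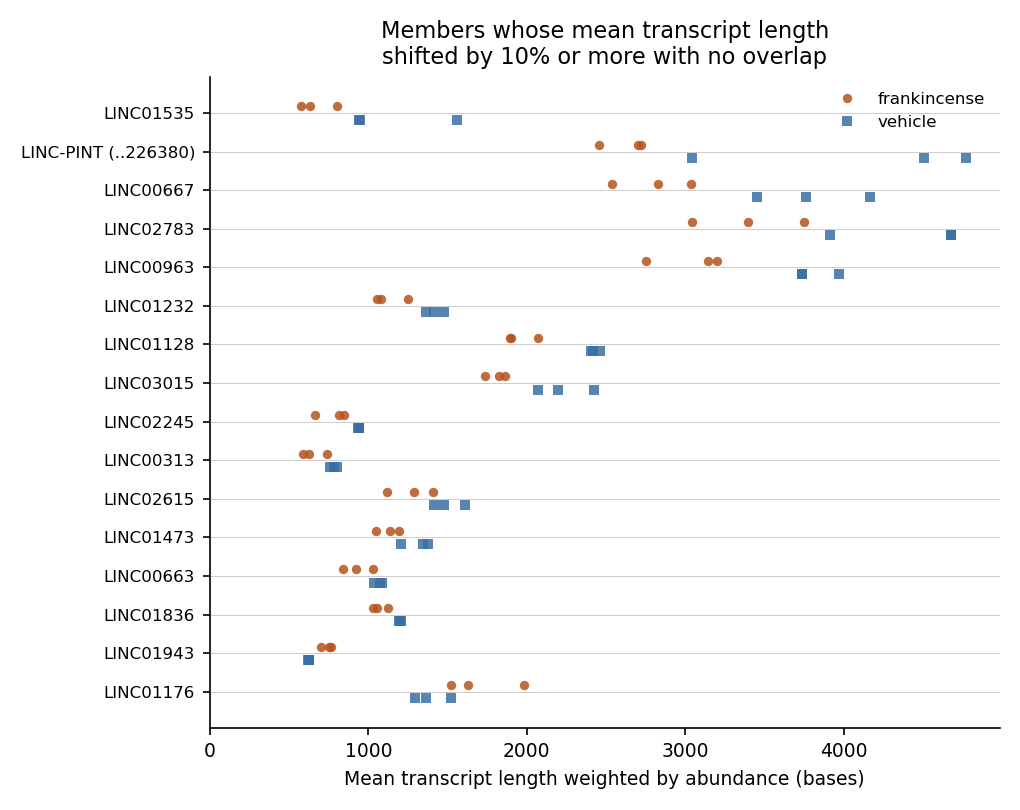
Mean transcript length in bases, weighted by estimated abundance, in every library for the 16 members whose groups did not overlap and whose mean moved by 10% or more, with the largest shortening at the top. Circles are frankincense libraries and squares vehicle libraries; the bottom pair, LINC01943 and LINC01176, are the 2 that were longer after frankincense.

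The largest shifts were all towards shorter transcripts. LINC01535 had 634, 577 and 801 bases after frankincense, against 1558, 949.7 and 943 bases after vehicle, a shift of -41.7% that rests on 19 to 28 expected counts a library. The LINC-PINT identifier ENSG00000226380 had 2722, 2455 and 2700.0 bases after frankincense, against 4773, 3045 and 4508 bases after vehicle, a shift of -36.1%. LINC00667 had 2535, 2826 and 3034 bases after frankincense, against 3452, 3758 and 4167 bases after vehicle, a shift of -26.2% with 684 to 1113 expected counts a library. LINC00963, added here as the member with the highest level, had 2751, 3202 and 3143 bases after frankincense, against 3736, 3734 and 3971 bases after vehicle, a shift of -20.5%.

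Since TPM divides reads by this length, length and level trade off in these genes. LINC00667 fell by 0.37 on the log2 scale on counts (adjusted p = 0.000228 by edgeR), while its TPM averaged 16.7 after frankincense and 13.2 after vehicle. For LINC01535 the log2 fold change on counts was 0.12 and not called, while its TPM averaged 2.74 after frankincense and 1.10 after vehicle. In all, 26 of 169 tested members (15.4%) had opposite signs on counts and on TPM, against 18.7% of all tested genes, and 4 of these were called, each lower on counts and higher on TPM. For LINC01278, with 2279 ± 87.4 bases after frankincense and 2464 ± 31.1 bases after vehicle (SD, n = 3 each), the count-based rise of 0.17 (adjusted p = 0.0168 by edgeR) was lost without frankincense replicate 1 or vehicle replicate 1 or 3, at 0.0539 to 0.0834.

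The positions of the members were not used in their selection. The median distance to the nearest protein-coding gene of GENCODE 29 was 15621 bases. In that annotation 24 members overlapped a coding gene, 37 more lay within 5 kb of one and 49 lay beyond 50 kb. Exon bases were shared with another gene by 71 members, and 31 had a near-identical stretch elsewhere, at least 200 bases long with 98% identity. With members that share exon bases or have a copy left out, 90 were tested, of which 20 were higher and 34 lower, or 60.0% against 62.9% of all genes. Of these, 65 had 1 TPM or more in both groups, with 12 higher and 21 lower. That is 50.8% called, below the 62.9% of all genes, a difference that was not tested. GENCODE 29 types 135 of the 181 as lincRNA and lists 34 under another name.

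Among members with 1 TPM or more in both groups that overlap a coding gene or lie within 5 kb of one, both genes were tested in 33 pairs and both were called in 15. In 9 of these 15 pairs the genes moved the same way, 2 higher and 7 lower, and in 6 the opposite way. Beyond 50 kb, both genes were called in 13 pairs, 8 the same way and 5 the opposite way. The shares are therefore of like size, and the difference between them was not tested. Pearson's r of the log2 fold changes was 0.54 over the 33 near pairs and 0.37 over the 28 tested pairs beyond 50 kb. These 2 values were not compared by a test either. Over all members within 5 kb, one-group members included, both genes were called in 23 of 46 pairs, 15 the same way and 8 the opposite way.

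**Figure D4:**
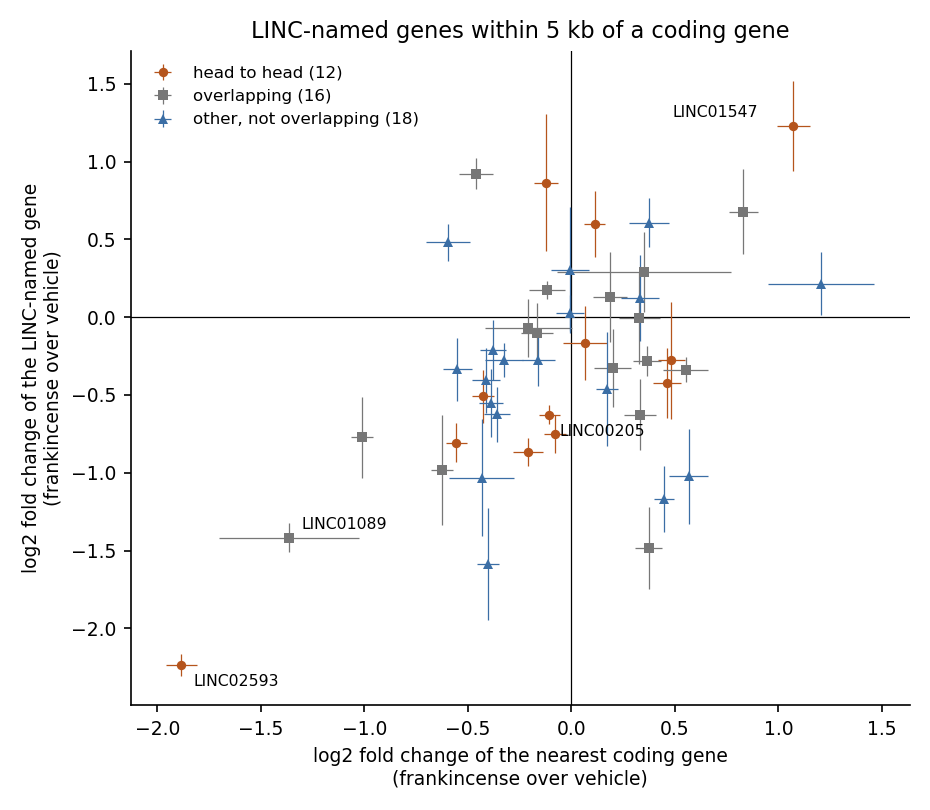
Log2 fold change (frankincense over vehicle) of 46 members (vertical) and of their nearest coding gene within 5 kb (horizontal), with bars of 1 standard error. Circles are the 12 head-to-head pairs, squares the 16 overlapping pairs and triangles the 18 other pairs; LINC02593 and its neighbour SAMD11 lie lowest on both axes.

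Head-to-head pairs, whose starts lie within 5 kb and point away from each other, were tested in 12 cases, and in 5 both genes were called, each time in the same direction. Across the 12 pairs, which differ in gene and neighbour but come from the same libraries, Pearson's r of the log2 fold changes was 0.80, and 0.84 across the 9 whose member reached 1 TPM in both groups. With so few pairs, 1 pair with large changes, such as LINC02593 and SAMD11, can weigh heavily on r. The matching values for head-to-head pairs over all genes are not given here. The pairs named were picked after their values were seen. LINC02593 and SAMD11, a sterile alpha motif protein gene 2912 bases from start to start, fell by 2.24 and 1.88 on the log2 scale. LINC00857 fell by 0.81 and ANXA11, an annexin, by 0.56, and LINC02615 fell by 0.51 and PGRMC2, a membrane-associated haem and progestin receptor component, by 0.43. These 3 are the pairs with both genes called among the 9 tested ones whose member reached 1 TPM in both groups. LINC01547 and SLX9, with starts 97 bases apart, had log2 fold changes of 1.23 and 1.07, and LINC00938 and ARID2, a chromatin remodelling subunit, of -0.87 and -0.21, but these members entered by 1 group.

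In some other close pairs, also picked after their values were seen, the member was called and its neighbour was not, with the same sign in both. These examples do not stand for all close pairs, since 8 of 23 called pairs within 5 kb moved the opposite way. For members within 5 kb downstream of a gene on the same strand, 4 called pairs moved the same way and 3 the opposite way. Pearson's r over the 12 tested pairs of that kind was -0.088. For overlapping pairs it was 0.26 over 9 on opposite strands and 0.34 over 7 on the same strand. The arrangements were not compared by a test. LINC00205, whose window is shown above, is itself head to head with its neighbour POFUT2. LINC00205 had 49.9, 47.7 and 54.7 CPM after frankincense, against 80.5, 80.4 and 74.6 CPM after vehicle. It fell by 0.63 ± 0.06 on the log2 scale (adjusted p = 4.99e-07 by edgeR), while POFUT2 had a log2 fold change of -0.11 ± 0.05 that was not called (adjusted p = 0.0903). LINC01436, with a log2 fold change of 0.60 (adjusted p = 0.0222 by edgeR), starts 671 bases from RUNX1, a runt-domain transcription factor, whose log2 fold change of 0.11 was not called (adjusted p = 0.0642). LINC01004 fell by 0.75 on the log2 scale, and KMT2E, a chromatin regulator 1135 bases away, had a log2 fold change of -0.08 that was not called. A call in 1 gene of a pair and not in the other does not show that they differ, and the difference within pairs was not tested.

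The genes that process and remove such RNAs changed modestly. Of 25 genes of nuclear RNA decay, 11 were higher and 6 lower, none by 2-fold or more, with a median log2 fold change of 0.16; the 68.0% called is near the 62.9% of all genes. Exosome core subunits EXOSC1 and EXOSC8 rose by 0.71 ± 0.07 and 0.69 ± 0.06 on the log2 scale, and SRRT, which links capped RNA to the decay machinery, fell by 0.80 ± 0.05 (adjusted p of at most 1.10e-06 by edgeR). MTREX, the helicase of the nuclear exosome, rose by 0.17, and EXOSC10, its nuclear exonuclease, fell by 0.15. Of 23 genes of cleavage, polyadenylation, the Integrator complex and export, 6 rose and 7 fell (56.5%), the median being -0.07, CPSF6 falling by 0.50 and CPSF4 rising by 0.46. Whether these levels bear on those of the members was not tested.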

How the data were processed

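RNA of 12Z cells was sequenced in 6 libraries, 3 per group. Per the labels' protocols, 1.5 ug of total RNA went into a TruSeq RNA kit; a strand-keeping protocol is not stated. The submitters' processing notes name GRCh38, STAR and RSEM 1.3.1, with STAR's version and the gene models not given in the sources used here. The deposited expected counts are RSEM estimates of the reads of each gene, per the file headers; likewise the deposited TPM and FPKM values are scaled for length and depth, and the length is the authors' abundance-weighted mean over transcripts.

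Here expected counts were rounded, filtered (filterByExpr), scaled by TMM and tested with edgeR 4.0.16 (robust quasi-likelihood, Benjamini-Hochberg over all genes, R 4.3.3). The fit was also run on simulated counts in which 200 well-counted genes changed by 2-fold. In these data 10509 genes were called, so that run does not bear on scaling under such wide change or on members with few counts. CPM values use TMM-scaled library totals. FPKM was not tested. Symbols came from a gene name table (60419 of 60616 identifiers) and otherwise from GENCODE 29, whose positions were used. Near-identical copies were searched with blastn 2.17.0. The 12 members not tested had too few counts. Genes named in the text are the 10 largest rises and falls among called members at 1 TPM or more in both groups, the 5 highest levels, the published role list, 4 one-group members in each direction, 2 members on each side of 1 TPM and the 3 largest length shifts; others are said to be picked later. The members and all lists were chosen with earlier results of these data known. Alternatives were DESeq2 1.42.0, limma 3.58.1 on log2 TPM with pseudocounts of 0.1 and 1, other scalings, no filter, a replicate block, other level limits and each library left out.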

Additional observations from a re-analysis of the deposited data

How the results depend on the processing

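Against 39 members higher and 65 lower of 169 tested, DESeq2 gave 29 and 45 of 181. Scaling by library size gave 42 and 55 of 169, and leaving out 1 library 32 to 37 and 51 to 61 of 171 to 172. Calls over all genes under each alternative are not given here. A change in the members therefore cannot be told from one in all genes. Counting only members that overlap no other gene left 13 higher and 31 lower of 72 tested, and only those with neither shared exon bases nor a copy, a choice made after seeing the data, 20 and 34 of 90; both count fewer genes by construction. Log2 TPM gave 54 higher with either pseudocount, and 37 lower with a pseudocount of 0.1 and 38 with 1. The replicate block gave 37 higher and 65 lower; deviations of libraries with the same number correlated at r = 0.050, 0.101 and 0.035 across genes, so the numbers were not taken as pairs. The summed TPM difference was 66.2 to 98.9 with 1 library left out and -33.2 when rescaled without mitochondrial genes. Members with no overlap in transcript length numbered 39 to 49 with 1 library left out and 16 with a change of 10% or more. Neighbour pairs called the same way numbered 26 of 42 within 50 kb.

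For 46 named members, 644 fold changes were recomputed, of which 579 kept direction and call, 48 lost the call, 6 gained one and 11 changed direction. DESeq2 lost 7 of these calls, those of LINC00674, LINC00467, LINC00680, LINC01116, LINC00472, LINC01588 and the LINC-PINT identifier ENSG00000231721, and log2 TPM those of LINC00342, LINC01116, LINC00680, the same LINC-PINT identifier and, with a pseudocount of 0.1, LINC00511. Scaling by library size ended the calls of LINC01116 (adjusted p = 0.0541), LINC00472 (0.0880) and that LINC-PINT identifier (0.0684) in edgeR, and no filter and the replicate block that of LINC00680 (0.0570 and 0.0547). On log2 TPM with pseudocounts of 0.1 and 1, LINC00667 was 0.33 and 0.31, LINC00265 0.24 and 0.21, LINC00472 0.044 and 0.034, and LINC01588 0.029 and 0.032. LINC00667, called lower on counts, was there called higher (adjusted p = 0.0248 and 0.0265 by limma). LINC00265 (0.147 and 0.148) and LINC00472 (0.805 and 0.802) were not called, so LINC00472 lost its call on that scale. LINC00641 was -0.085 without frankincense replicate 3, -0.0058 without vehicle replicate 3 and up to 0.14 without another library, and LINC01535 -0.069 without frankincense replicate 2 and up to 0.24 without another library. Where no value above shows it, the cause was not tested. Depth limits the members with under about 1 CPM, whose standard errors on the log2 scale reached the sizes given for LINC01881 and LINC01605.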
